A study of Homo sapiens with 12 samples.

Results

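The 42 interferon-induced genes described here are genes whose transcription rises in many cell types after exposure to interferon. They were chosen as a list by gene symbol, with earlier results of these data known. Of the 42 genes, 41 had a probe set annotated to that gene alone on both array types used (STAT2 was not analysed here). On the smaller array type 11939 genes were so measured. Of the 41 genes, 36 had a mean above the filter on dim genes (intensity 74.0) in at least 1 group and were tested, and IFI44L, OAS2, TRIM22, RSAD2 and SAMD9 were not.

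The study measured mRNA on Affymetrix arrays in 12 samples of 4 groups, 3 per group. DU145-DR and 22Rv1-DR are docetaxel-resistant derivatives of the human prostate cancer lines DU145 (from a brain metastasis, androgen-independent) and 22Rv1 (from a xenograft of a relapsed tumour), and each was compared with its own docetaxel-sensitive parental line. Docetaxel is a taxane that stabilises microtubules. All cells were kept in RPMI medium with 10% FBS, resistant cells with docetaxel added and parental cells without it, so that in both comparisons acquired resistance and exposure to the drug cannot be told apart. Doses, exposure times and the number of resistant clones were not given in the sources used here. No label says that the replicates came from separate cultures, so the p-values reflect the spread between these samples alone, and that spread may be technical.

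Interferons are secreted proteins that signal through cell surface receptors, JAK kinases and STAT transcription factors. Type I interferons act through IFNAR1 and IFNAR2, and lead to the complex ISGF3, which contains IRF9 and binds the interferon-stimulated response element (ISRE) in the promoters of its targets. Interferon gamma acts through IFNGR1 and IFNGR2, and its targets often carry the gamma-activated sequence (GAS). The products of the target genes include proteins that block virus entry, bind or degrade viral RNA, and attach the ubiquitin-like protein ISG15 to other proteins, and in some cancer cells part of this set is expressed with no interferon added.

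The promoters of genes that changed in these cells are shown first, since most carry an ISRE-like sequence close to the start of transcription. Sequences are from RefSeq on GRCh38.p14 and run 5′ to 3′ on the strand of the gene. IFITM3 is shown for chr11:320868-320947 on the minus strand, IFITM1 for chr11:313965-314044 on the plus strand and GBP1 for chr1:89065291-89065370 on the minus strand. ISG15 is shown for chr1:1013349-1013428 on the plus strand, IFI6 for chr1:27672263-27672342 on the minus strand and IFIT3 for chr10:89327806-89327885 on the plus strand. These 6 genes had lower mRNA in DU145-DR cells. HERC5 at chr4:88456959-88457038 on the plus strand and PLSCR1 at chr3:146544642-146544721 on the minus strand had higher mRNA in 22Rv1-DR cells, as had IFITM1 and IFITM3. Capitals mark every match to TTTCNNTTTC or its reverse complement GAAANNGAAA, where N is any base.
IFITM3: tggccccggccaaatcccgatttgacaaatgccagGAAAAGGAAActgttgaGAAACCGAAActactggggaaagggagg
IFITM1: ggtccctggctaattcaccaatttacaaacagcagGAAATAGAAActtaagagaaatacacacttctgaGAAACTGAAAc
GBP1: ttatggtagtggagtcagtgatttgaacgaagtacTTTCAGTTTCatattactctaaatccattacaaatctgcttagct
ISG15: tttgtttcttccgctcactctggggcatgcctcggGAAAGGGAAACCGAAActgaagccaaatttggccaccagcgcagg
IFI6: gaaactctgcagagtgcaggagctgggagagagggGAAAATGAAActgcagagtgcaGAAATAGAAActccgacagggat
IFIT3: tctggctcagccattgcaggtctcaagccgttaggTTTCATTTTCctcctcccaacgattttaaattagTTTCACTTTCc
HERC5: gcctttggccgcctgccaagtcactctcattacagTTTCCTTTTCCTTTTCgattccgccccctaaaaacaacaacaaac
PLSCR1: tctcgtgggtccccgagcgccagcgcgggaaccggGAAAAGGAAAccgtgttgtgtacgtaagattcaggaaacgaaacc

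RefSeq promoters, from 250 bases before to 50 bases after each gene's start, were found for 33 of the 42 listed genes. The ISRE-like letters were present on either strand in 22 of these 33 genes (66.7%), against 4.38% of 27305 genes with a promoter. In ISG15 and HERC5 the 2 matches of the printed window overlap. By outcome, the letters were found in 10 of the 13 genes that fell in DU145-DR cells (76.9%), in 9 of the 16 tested there that did not pass (56.2%), and in 5 of the 6 that rose in 22Rv1-DR cells (83.3%). The GAS letters TTCNNNGAA, which read the same on both strands, were in 10 of the 33 genes (30.3%) and in 9.38% of all genes. A match describes the sequence and does not show that a factor was bound.

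Levels are given as linear probe-set intensity. A change is the resistant value minus the parental value in log2, after 16 was added to the intensity. Replicates 1 and 2 of each group (8 arrays) were fitted together with limma, which gave the standard error and the Benjamini-Hochberg adjusted p over 9713 genes, and a gene passed at an adjusted p under 0.05. Replicate 3 of each group was measured on a larger array type, was not tested, and is called the third pair. On the arrays of replicates 1 and 2 the DU145 and DU145-DR arrays had a higher floor, with a 5th percentile of 35.8 to 38.6, than the 22Rv1-DR and 22Rv1 arrays at 11.5 to 12.3. Intensities were therefore compared between the lines only on the third arrays, whose 5th percentiles were 10.9 to 11.0. For levels on replicates 1 and 2, only percentiles within each array were set side by side. The part of the unequal floor in those percentiles was not tested. Correlations across genes between replicates 1 and 2 of a group were 0.962 to 0.991. The median absolute log2 difference between these replicates was 0.36 in DU145-DR, 0.32 in DU145, 0.17 in 22Rv1-DR and 0.15 in 22Rv1 cells. The fit used 1 spread per gene for all 4 groups, so each line was judged by a spread shared with the other.

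A large share of the interferon-induced genes fell in DU145-DR cells. Of 36 genes tested, 15 fell (41.7%), 0 rose and 21 did not pass, while 5.48% of all genes tested fell and 5.53% rose. Since the list was chosen with earlier results known, such shares here and below describe it and do not test it. The genes that fell were the virus entry inhibitors IFITM1, IFITM2 and IFITM3, genes of the ISG15 pathway (ISG15, UBE2L6, USP18), the transcription factor IRF9, the RNA sensor IFIH1 and the antiviral effectors MX1, OAS3, IFIT3, ISG20, GBP1, IFI6 and IFI35. No gene of the list passed as higher, and 1 (IFIT5) was higher at an unadjusted p under 0.05. Over the 41 genes the median change was -0.28 on replicates 1 and 2 and -1.14 on the third pair, where the median over all genes tested was -0.01 in both.

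The third pair, which the test did not use, had 22 of the 36 tested genes at least 2-fold lower in DU145-DR cells (61.1%) and 2 at least 2-fold higher (5.56%), against 9.16% and 9.41% of all genes tested. All 15 genes that passed on replicates 1 and 2 were lower on the third pair, 13 of them at least 2-fold. A further 9 genes that did not pass were also at least 2-fold lower there. In 22 of the 36 genes (61.1%) both DU145-DR arrays lay below both DU145 arrays and the third pair went the same way, and in 2 (5.56%) the order was the reverse, against 16.6% and 19.2% of all genes tested.

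**Figure D1:**
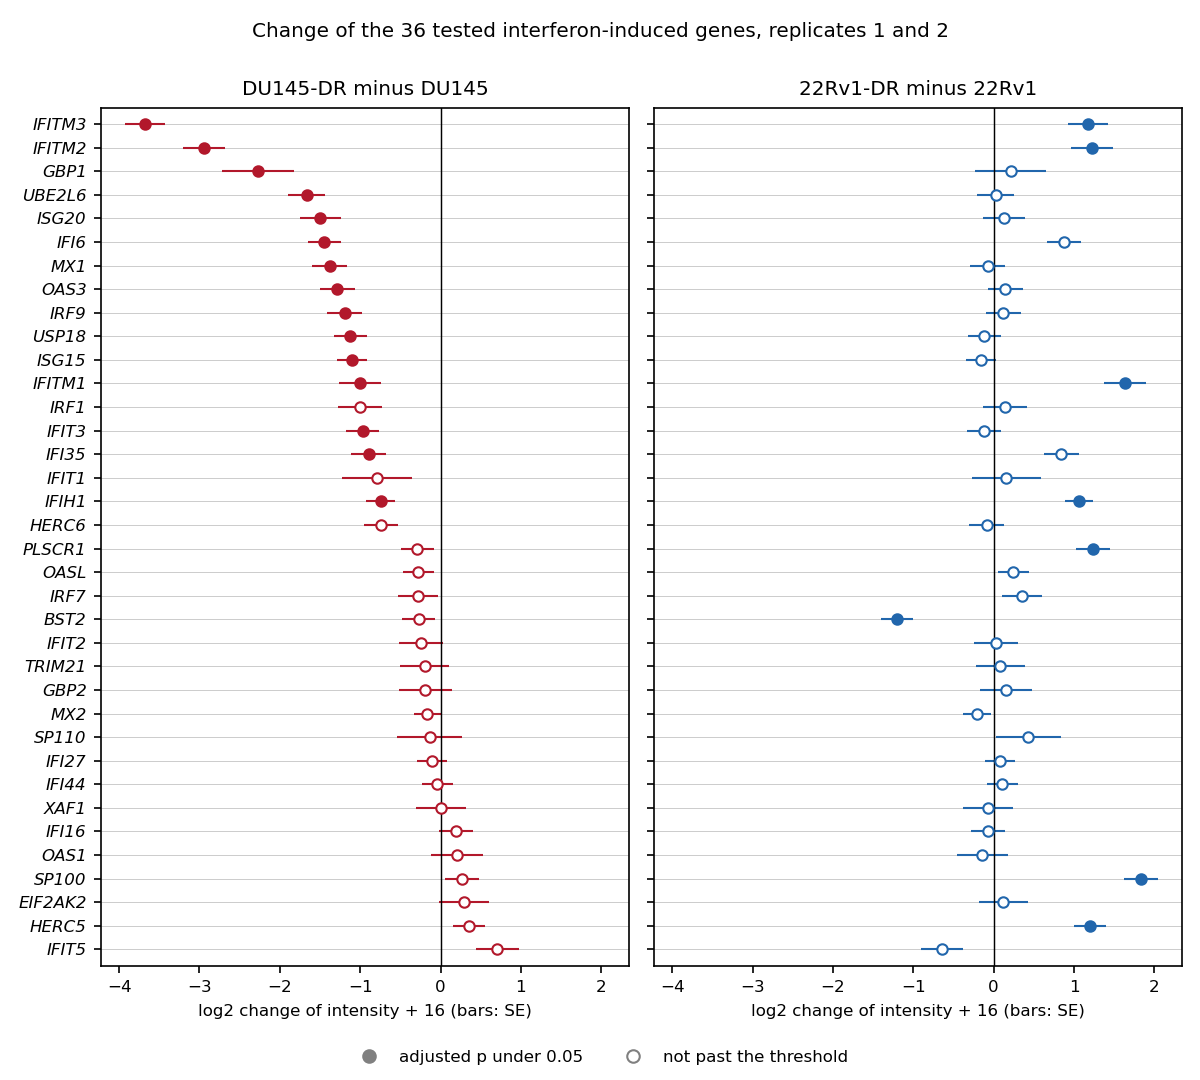
Log2 change (horizontal axis, resistant minus parental, intensity plus 16) of the 36 tested interferon-induced genes on replicates 1 and 2, DU145-DR against DU145 on the left and 22Rv1-DR against 22Rv1 on the right. Bars are limma's standard errors and filled points passed the threshold: 15 points on the left, all below 0, and 8 on the right, 7 of them above 0.

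The changes of largest size were in the IFITM family, small membrane proteins that hold enveloped viruses at the stage of membrane fusion. The 3 genes lie next to each other on chromosome 11 (IFITM2 at chr11:307816-309395, IFITM1 at chr11:314040-315272 and IFITM3 at chr11:319676-320860, GRCh38.p14). IFITM3 intensity was 372 and 228 on the DU145-DR arrays of replicates 1 and 2 and 79.9 on the third, against 3692, 4153 and 8422 on the DU145 arrays. Every DU145-DR array was far below every DU145 array, and the change was -3.68 ± 0.25 (SE, adjusted p = 8.55e-05), with -6.46 on the third pair.

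IFITM2 intensity was 298, 209 and 73.5 on the DU145-DR arrays, against 1652, 2487 and 4270 on the DU145 arrays. The groups did not overlap, and IFITM2 fell by 2.94 ± 0.26 (SE, adjusted p = 0.000357), with -5.58 on the third pair. The probe sets of IFITM2 and IFITM3 are of a kind prone to cross-hybridization by their name, and these family members are alike in sequence, so both readings may include more than 1 of the genes. The IFITM1 probe set is not of that kind by its name, but its specificity was not tested. A further probe set, annotated to both IFITM1 and IFITM2, was left out. IFITM1 gave 56.1, 64 and 30.1 in DU145-DR cells and 103, 180 and 855 in DU145 cells. It also fell (-1.004 ± 0.26, SE, adjusted p = 0.0424), and was -4.24 on the third pair. On replicates 1 and 2 the IFITM1 readings of DU145-DR cells were within 2-fold of the 5th percentile of their arrays, so a larger fall could not be read there. The IFITM1 call was lost under quantile normalization (adjusted p = 0.0913), a shift to 1 median (0.0703), a pseudocount of 64 (0.0671), no filter on dim genes (0.0552) and the DU145 line alone (0.163), and in 6 of 8 fits that left out 1 array.

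**Figure D2:**
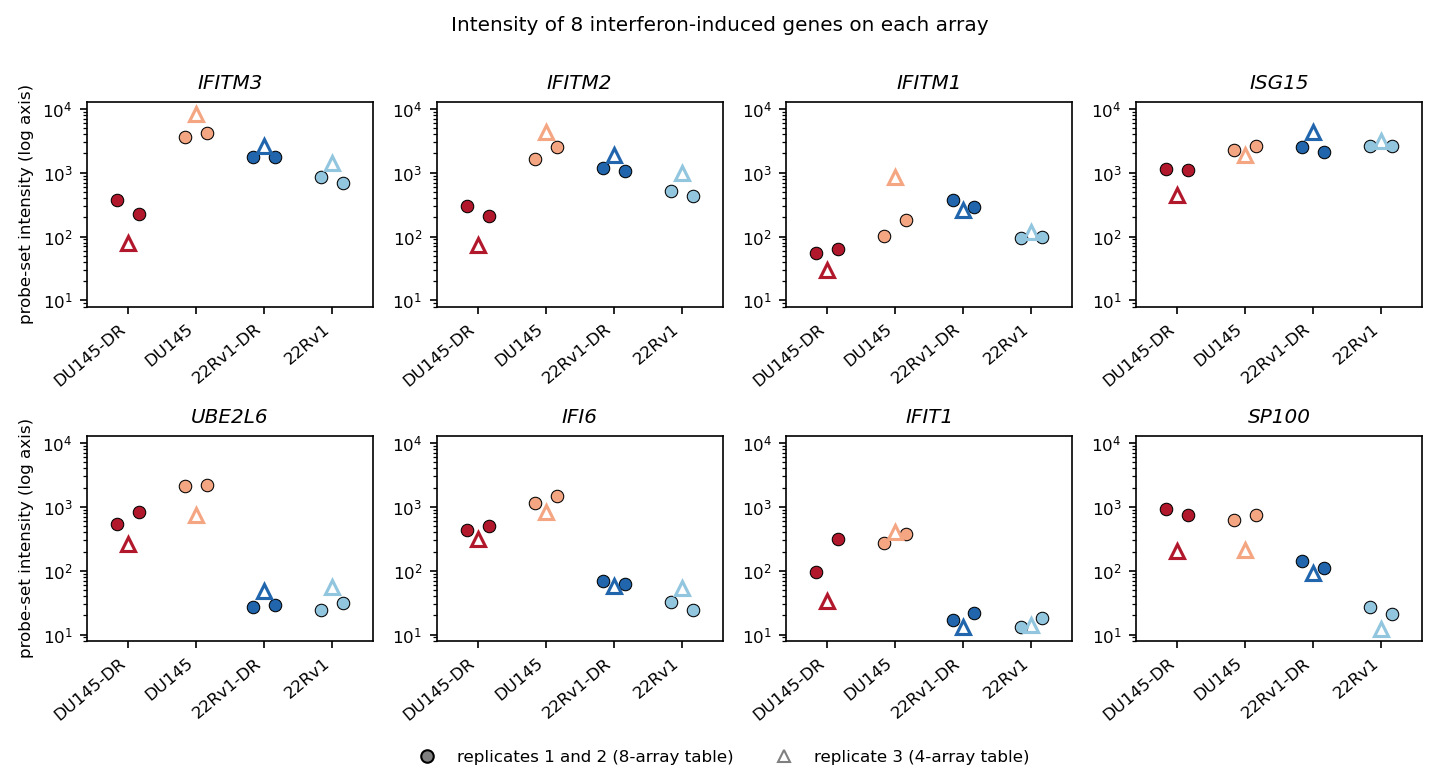
Probe-set intensity (vertical log axis) of 8 interferon-induced genes on all 12 arrays, by group. Filled circles are replicates 1 and 2 and open triangles replicate 3, which is from the other array type. IFITM3 spans 79.9 to 372 in DU145-DR cells and 3692 to 8422 in DU145 cells, while in the 22Rv1 line the order is turned, with 1734 to 2610 in 22Rv1-DR cells and 690 to 1409 in 22Rv1 cells.

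Genes of ISG15 conjugation moved unevenly in DU145-DR cells. ISG15 itself had an intensity of 1152, 1121 and 449 in DU145-DR cells, against 2304, 2610 and 1898 in DU145 cells. It fell by 1.10 ± 0.18 (SE, adjusted p = 0.00767), and all 3 DU145-DR arrays were below all 3 DU145 arrays. UBE2L6, the conjugating enzyme that passes ISG15 on to the ligase, read 545, 843 and 260 in DU145-DR cells, against 2135, 2241 and 744 in DU145 cells (-1.67 ± 0.23, SE, adjusted p = 0.0033). USP18, the protease that removes ISG15 and a brake on the type I receptor, read 367, 505 and 99.0 in DU145-DR cells and 898, 1017 and 280 in DU145 cells, a change of -1.12 ± 0.20 (SE, adjusted p = 0.0111).

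HERC5, the main ligase for ISG15 in human cells, did not share that direction. Its intensity was 885, 885 and 832 in DU145-DR cells, against 699, 680 and 324 in DU145 cells, and the change of 0.35 ± 0.20 (SE) did not pass (adjusted p = 0.351; 1.32 on the third pair). Its neighbour on chromosome 4, HERC6, was at 125, 139 and 88.6 in DU145-DR cells and at 208, 258 and 179 in DU145 cells. HERC6 did not pass (-0.74 ± 0.22, SE, adjusted p = 0.0653), though the 2 groups did not overlap on any array type.

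Among the transcription factors, IRF9, the DNA-binding part of ISGF3, fell in DU145-DR cells. It read 284, 190 and 220 on the DU145-DR arrays, against 556, 549 and 564 on the DU145 arrays (-1.19 ± 0.22, SE, adjusted p = 0.0109; -1.30 on the third pair). IRF1, a factor induced by interferon gamma, was at 211, 272 and 126 in DU145-DR cells and 468, 523 and 214 in DU145 cells. Its change of -0.997 ± 0.27 (SE) lay just outside the threshold (adjusted p = 0.0527). IRF7, which drives interferon genes in infected cells, did not pass at -0.28 ± 0.25 (SE, adjusted p = 0.623), and was -0.999 on the third pair.

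The RNA-binding IFIT family and the sensors gave a mixed picture between the array types. IFIT3 read 151, 202 and 61.4 in DU145-DR cells, against 329, 391 and 182 in DU145 cells, and fell by 0.97 ± 0.21 (SE, adjusted p = 0.0207). The IFIT3 call was lost under a shift to 1 median (adjusted p = 0.0538) and with the DU145 line alone (0.127). It did not hold in all fits that left out 1 array. IFIT1, which binds viral RNA that lacks a fully methylated cap, was at 96.3, 313 and 33.1 in DU145-DR cells and at 271, 370 and 410 in DU145 cells. The groups overlapped on replicates 1 and 2, and its -0.79 ± 0.43 (SE, adjusted p = 0.326) did not pass, while the third pair gave -3.12.

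Probe sets present only on the larger array type gave wider gaps for this family. An additional IFIT3 probe set read 33.1 in DU145-DR cells and 904 in DU145 cells, a difference of -4.23, and an additional IFIT2 probe set read 26.2 in DU145-DR cells and 422 in DU145 cells, a difference of -3.38. The IFIT2 probe set shared by both array types did not pass (-0.25 ± 0.27, SE, adjusted p = 0.727; -1.50 on the third pair). IFIT5 ran the other way, with 609, 776 and 399 in DU145-DR cells and 331, 519 and 147 in DU145 cells. Its change of 0.71 ± 0.26 (SE, adjusted p = 0.137; 1.35 on the third pair) did not pass.

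IFIH1 encodes MDA5, a cytoplasmic sensor of long double-stranded RNA. Its intensity was 55.3, 59.7 and 16.9 in DU145-DR cells, against 110, 105 and 91.1 in DU145 cells, and it fell by 0.75 ± 0.18 (SE, adjusted p = 0.0301; -1.70 on the third pair). All 4 readings on replicates 1 and 2 were at or below the 40th percentile of their arrays, and the call was lost with the mean of the gene's probe sets (adjusted p = 0.121), quantile normalization (0.0554), a shift to 1 median (0.0863) and the DU145 line alone (0.186), and in 7 of 8 fits that left out 1 array. EIF2AK2, the kinase PKR that halts translation on double-stranded RNA, did not pass (0.29 ± 0.31, SE, adjusted p = 0.701), and replicate 3 read 815 in both groups.

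Other effectors fell by similar amounts. MX1, a GTPase that blocks influenza virus among others, read 86.8, 54.6 and 18.0 in DU145-DR cells, against 191, 221 and 133 in DU145 cells (-1.38 ± 0.22, SE, adjusted p = 0.00614). OAS3, which makes the 2-5A signal that activates RNase L, read 147, 125 and 99.7 in DU145-DR cells, against 313, 399 and 190 in DU145 cells (-1.28 ± 0.21, SE, adjusted p = 0.0073). ISG20, an exonuclease, read 407, 236 and 102 in DU145-DR cells, against 855, 955 and 695 in DU145 cells (-1.50 ± 0.26, SE, adjusted p = 0.0082), and its other probe set gave -1.50 as well. In each of these 3 genes the highest DU145-DR array of replicates 1 and 2 was below the lowest DU145 array.

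GBP1, a guanylate-binding protein that acts against bacteria and viruses inside the cell, read 41.9, 49.2 and 12.3 in DU145-DR cells, against 149, 516 and 53.4 in DU145 cells. The DU145 arrays differed widely and the DU145-DR arrays lay near their floor, so the change of -2.27 ± 0.45 (SE, adjusted p = 0.0146) is loosely determined. IFI6, a mitochondrial and endoplasmic reticulum protein, read 443, 508 and 320 in DU145-DR cells, against 1160, 1499 and 843 in DU145 cells (-1.44 ± 0.21, SE, adjusted p = 0.0042). IFI35, a partner of the protein NMI, read 300, 234 and 120 in DU145-DR cells, against 501, 512 and 249 in DU145 cells (-0.89 ± 0.21, SE, adjusted p = 0.0314). The IFI35 call was lost with the DU145 line alone (adjusted p = 0.140) and did not hold in all fits that left out 1 array. Over the alternatives its change ran from -1.06 to -0.72.

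The remaining tested genes did not pass in this line. On replicates 1 and 2 IFI16, IFI27, IFI44, MX2, OAS1, OASL, GBP2, BST2, SP100, SP110, TRIM21, XAF1 and PLSCR1 had changes between -0.29 and 0.26. On the third pair some of them were lower, with GBP2 at -1.78, IFI16 at -1.41, OASL at -1.30, BST2 at -1.28, MX2 at -1.26, IFI44 at -1.14 and PLSCR1 at -1.05. By the probe sets that stood for them, SP100, SP110 and XAF1 were between -0.04 and -0.02 on the third pair. The other SP100 probe sets ran from 0.13 to 0.89 on replicates 1 and 2 and from -0.08 to 0.88 on the third pair. The probe set at 0.89 gave 0.78 on the third pair, and none of these was tested. IFI27, MX2 and XAF1 were tested because their mean was above the filter in at least 1 group of the DU145 line, where the floor was higher, although they were at or below the 40th percentile of their own array on all 8 arrays. Of the genes that passed in either line, GBP1, IFIH1 and MX1 were above the filter only in DU145 cells, and BST2 only in 22Rv1 cells. In each case that was the parental group with the higher readings, and these calls held with no filter on dim genes. The 5 dim genes had changes from -0.05 to 0.09 on replicates 1 and 2, and none was tested.

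**Figure D3:**
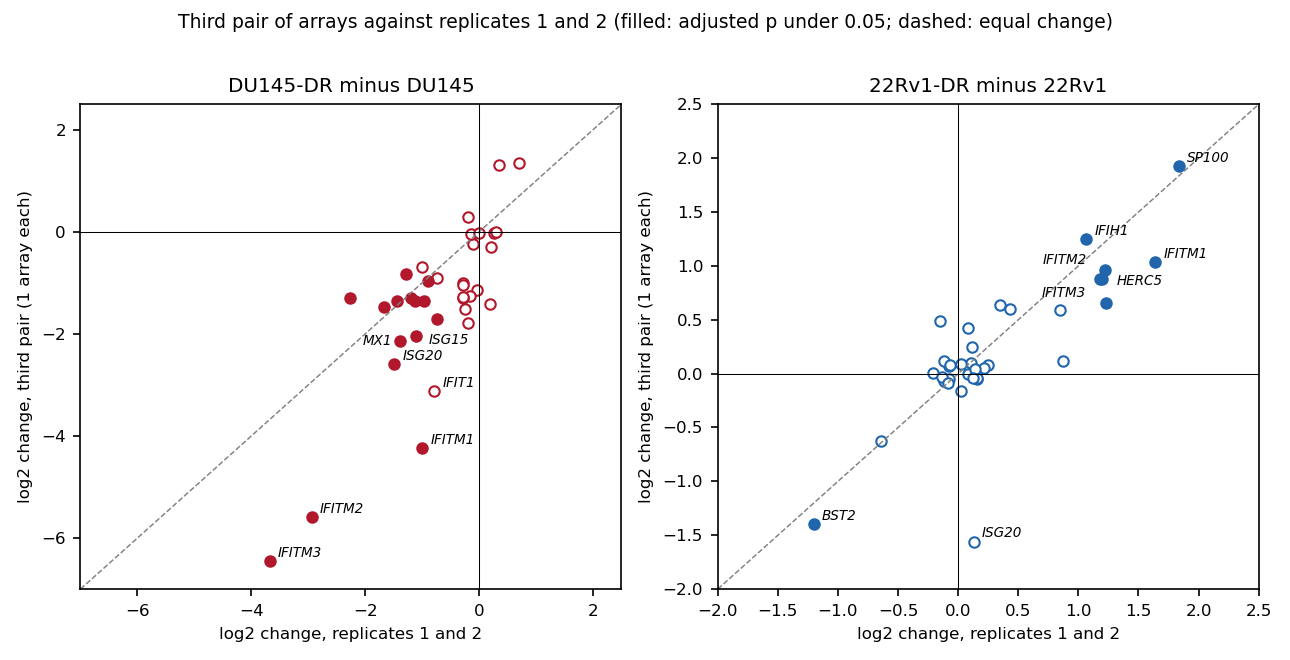
Log2 change on the third pair (vertical axis, 1 array per group) against the change on replicates 1 and 2 (horizontal axis), 1 point per tested gene, with DU145-DR against DU145 on the left and 22Rv1-DR against 22Rv1 on the right. Filled points passed the threshold on replicates 1 and 2 and the dashed line marks equal change. IFITM3, IFITM2, IFITM1 and IFIT1 lie well below the line in the left panel, at -6.46, -5.58, -4.24 and -3.12 on the third pair, and ISG20 lies apart at -1.56 in the right panel.

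Across the 36 genes the DU145 change on replicates 1 and 2 had a Pearson correlation of 0.794 with that on the third pair, as a description, since the genes share the arrays. The DU145-DR and DU145 arrays of replicates 1 and 2 had a higher floor than the third arrays, and its part in the smaller falls of IFITM1, IFITM2, IFITM3 and IFIT1 there was not tested. Of the 15 calls, 7 (GBP1, IFI6, IFITM2, IFITM3, ISG15, MX1 and UBE2L6) held when any 1 of the 8 arrays was left out. Without replicate 2 of DU145 fewer genes of the list passed as lower, and so did fewer of all genes tested. The median change of the 36 tested genes was then -0.59, against -0.51 in the fit on all 8 arrays. In a fit on the 4 arrays of this line alone the count of genes that fell was 4 (IFI6, IFITM2, IFITM3 and UBE2L6). The count over all genes tested was 159 there, against 532 in the fit on all 8 arrays.

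Upstream genes of the pathway did not pass in this comparison. Among tested genes, 0 of 2 interferon ligands, 0 of 5 receptor chains, 0 of 11 JAK-STAT genes and their inhibitors, 0 of 11 nucleic acid sensing genes and 0 of 7 chromatin and IRF partners passed by limma in DU145-DR cells. IFNAR2, the chain of the type I receptor that binds interferon tightly, was at -0.98 ± 0.36 (SE, adjusted p = 0.136; -0.999 on the third pair), an unadjusted p of 0.0259. All 5 receptor chains were below 0 on the third pair, where the median over all genes tested was -0.01. They ran from -0.04 for IFNAR1 to -1.15 for IL10RB, shared by the interleukin-10 and interferon lambda receptors. On replicates 1 and 2 IFNGR1 and IFNGR2 were at 0.14 and 0.07. STAT3, which transmits interleukin-6 and other signals, was at -1.04 ± 0.29 (SE, adjusted p = 0.0536).

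Markers of prostate epithelium and of other cell types were checked beside these results. Of 7 tested prostate epithelium markers 3 fell in DU145-DR cells, namely the cell adhesion genes CDH1 (-5.74) and EPCAM (-2.36) and the keratin KRT18 (-1.01), and 0 rose. The other 4 did not pass, with changes from -0.01 for KLK2 to 0.11 for KRT8, which was at 0.46 on the third pair. Leukocyte markers, with 8 genes measured and 4 tested, had 0 calls in either line, and their summed intensity was 576 to 718 in DU145-DR cells and 630 to 811 in DU145 cells. Endothelial markers likewise had 0 of 3 calls in either line, and the fibroblast marker FBLN1 rose in DU145-DR cells (0.89 ± 0.22, SE). The other 6 tested fibroblast markers did not pass there, with changes from -0.09 for PDGFRB to 0.37 for COL3A1. The part of these marker changes in the interferon-induced genes was not tested. In bulk samples fewer cells of a kind and less mRNA per cell cannot be told apart.

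In 22Rv1-DR cells a smaller number of interferon-induced genes differed from 22Rv1 cells, and most of those were higher. Of 36 genes tested, 7 rose (19.4%), 1 fell (2.78%) and 28 did not pass, while 3.13% of all genes tested rose and 2.43% fell. The genes that rose were IFITM1, IFITM2, IFITM3, IFIH1, HERC5, PLSCR1 and SP100, and BST2 fell. All 7 that rose were also higher on the third pair. Over the 41 genes the median change was 0.12 on replicates 1 and 2 and 0.08 on the third pair, where the medians over all genes tested were 0.01 and 0.04.

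The IFITM family, which fell in DU145-DR cells, rose in 22Rv1-DR cells. IFITM1 intensity was 375, 294 and 258 on the 22Rv1-DR arrays, against 93.7, 98.4 and 118 on the 22Rv1 arrays (1.64 ± 0.26, SE, adjusted p = 0.00752; 1.03 on the third pair). IFITM2 read 1201, 1053 and 1911 in 22Rv1-DR cells, against 516, 434 and 976 in 22Rv1 cells (1.22 ± 0.26, SE, adjusted p = 0.0302; 0.96 on the third pair). IFITM3 read 1734, 1758 and 2610 in 22Rv1-DR cells, against 843, 690 and 1409 in 22Rv1 cells (1.18 ± 0.25, SE, adjusted p = 0.0288; 0.88 on the third pair). The groups did not overlap within either array type for any of the 3 genes. As in the DU145 line, the IFITM2 and IFITM3 readings may include more than 1 of the genes.

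IFIH1, the double-stranded RNA sensor, read 60.1, 65.8 and 105 in 22Rv1-DR cells, against 19.7, 23.9 and 34.8 in 22Rv1 cells. It rose by 1.06 ± 0.18 (SE, adjusted p = 0.0094), and by 1.25 on the third pair. The other probe set of IFIH1 on replicates 1 and 2, which read close to the floor, was at -0.10, and with the mean of both probe sets the call was lost (0.48, adjusted p = 0.131). HERC5 read 64.9, 95.0 and 64.9 in 22Rv1-DR cells, against 26.2, 24.4 and 28.1 in 22Rv1 cells (1.20 ± 0.20, SE, adjusted p = 0.0102; 0.88 on the third pair).

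PLSCR1, a phospholipid scramblase with antiviral activity, read 519, 622 and 771 in 22Rv1-DR cells, against 211, 256 and 484 in 22Rv1 cells (1.23 ± 0.21, SE, adjusted p = 0.0106). Its other probe set on replicates 1 and 2 gave 1.07, and the third pair gave 0.65. SP100, a component of PML nuclear bodies that restrains DNA viruses, read 142, 112 and 91.8 in 22Rv1-DR cells, against 27.1, 21.0 and 12.4 in 22Rv1 cells (1.83 ± 0.21, SE, adjusted p = 0.00146; 1.93 on the third pair). The gene's other 4 probe sets on replicates 1 and 2 had changes between -0.02 and 0.13, and the mean of all its probe sets was 0.42 with no call (adjusted p = 0.335). On the third pair 1 of these 4 gave 1.70 and the others -0.02, 0.02 and 0.24, and a probe set only on the larger array type gave 0.17.

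BST2, also called tetherin, which holds budding viruses at the cell surface, went against the others that passed. It read 28.6, 22.3 and 33.4 in 22Rv1-DR cells, against 69.1, 90.5 and 114 in 22Rv1 cells. The groups did not overlap, and BST2 fell by 1.20 ± 0.20 (SE, adjusted p = 0.0097), with -1.39 on the third pair. IFIT5 did not pass but was also lower (-0.64 ± 0.26, SE, adjusted p = 0.266), with -0.62 on the third pair.

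Near the threshold, IFI6 was at 70.0, 61.0 and 58.5 in 22Rv1-DR cells, against 32.9, 24.3 and 52.7 in 22Rv1 cells. Its change of 0.88 ± 0.21 (SE, adjusted p = 0.0509) did not pass and was 0.12 on the third pair. IFI35 was at 187, 142 and 244 in 22Rv1-DR cells, against 91.8, 76.6 and 156 in 22Rv1 cells (0.84 ± 0.21, SE, adjusted p = 0.0621; 0.59 on the third pair). Both passed under quantile normalization, with an adjusted p of 0.0137 for IFI6 and 0.0373 for IFI35.

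Several genes that fell in DU145-DR cells had small changes in 22Rv1-DR cells. ISG15, bright in this line, read 2539, 2120 and 4390 in 22Rv1-DR cells, against 2592, 2574 and 3126 in 22Rv1 cells (-0.15 ± 0.18, SE, adjusted p = 0.90). IRF9 was at 0.12 ± 0.22, OAS3 at 0.15 ± 0.21, USP18 at -0.11 ± 0.20 and IFIT3 at -0.12 ± 0.21 (SE), none of which passed. ISG20 differed between the array types, at 0.13 ± 0.26 (SE) on replicates 1 and 2 and -1.56 on the third pair, where it read 111 in 22Rv1-DR cells and 360 in 22Rv1 cells.

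Many of the genes read low in the 22Rv1 line. Of the 41 genes, 17 were at or below the 40th percentile of their array on all 4 22Rv1-DR and 22Rv1 arrays of replicates 1 and 2, and 14 were above it on all 4. For the DU145-DR and DU145 arrays the numbers were 10 and 24. IFIT1, MX2, GBP1, GBP2, IFI16, IFI44 and UBE2L6 were among those low on all 4 arrays of the 22Rv1 line, and their changes there lay between -0.21 and 0.21, none of which passed.

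**Figure D4:**
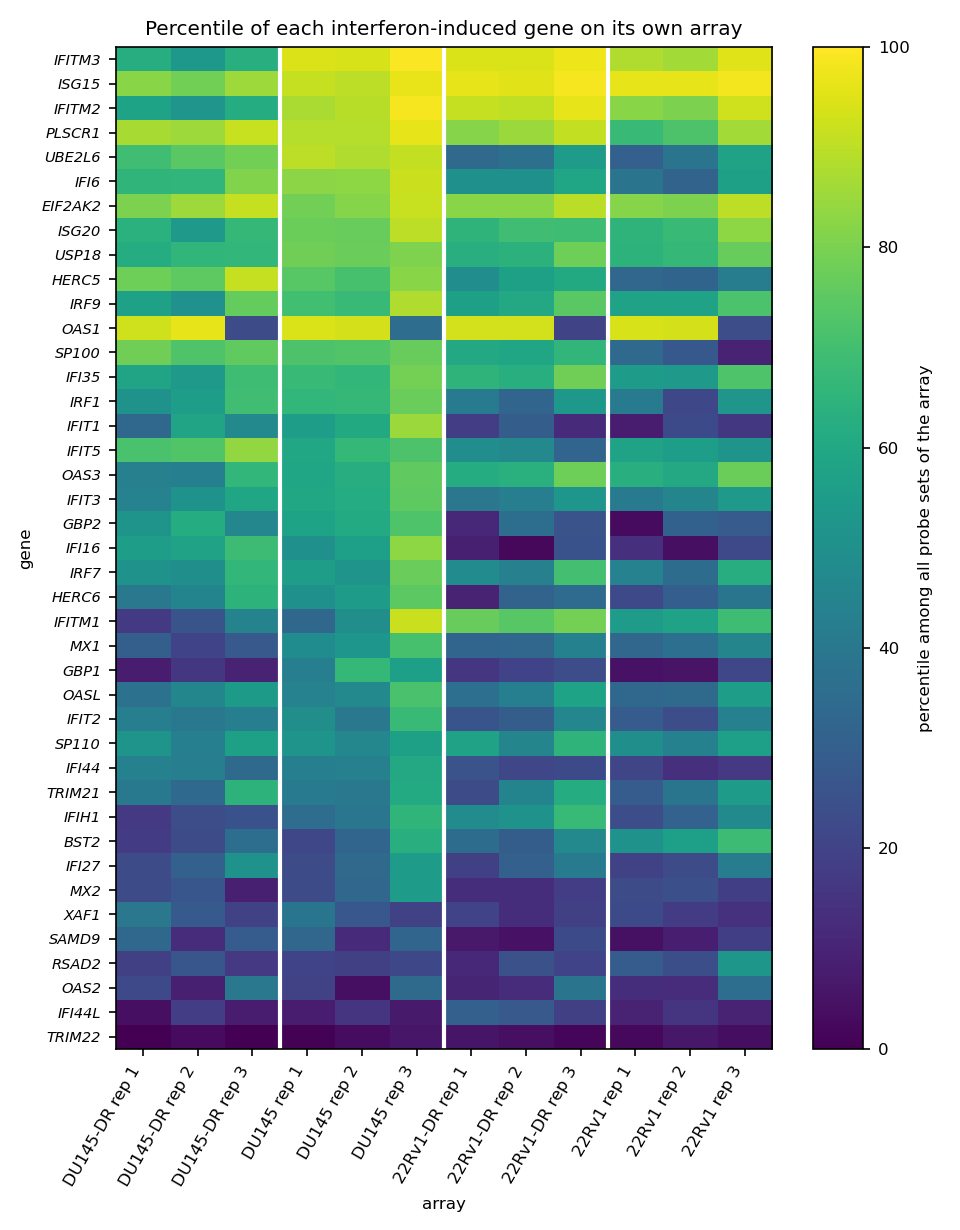
Percentile of each of the 41 genes among all probe sets of its own array (colour, 0 to 100), with genes in rows and the 12 arrays in columns, sorted by the mean percentile in DU145 cells. Colours are to be read along a row. Of the 41 genes, 24 are above the 40th percentile on all 4 DU145-DR and DU145 arrays of replicates 1 and 2, against 14 on the 22Rv1-DR and 22Rv1 arrays.

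On the third pair 3 of the 36 tested genes were at least 2-fold higher in 22Rv1-DR cells (8.33%: SP100, IFIH1 and IFITM1) and 2 at least 2-fold lower (5.56%: ISG20 and BST2), against 2.8% and 3.89% of all genes tested. Groups apart on replicates 1 and 2 with the third pair the same way were counted for 11 genes on the higher side (30.6%) and 4 on the lower side (11.1%), against 19.8% and 16.2% of all genes tested. The change on replicates 1 and 2 had a Pearson correlation of 0.814 with the third pair over the 36 genes, as a description. The count of 8 changed genes was 2 or fewer when any 1 of the 4 arrays of this line was left out: 2 without replicate 1 or replicate 2 of 22Rv1-DR, 2 without replicate 1 of 22Rv1 and 1 without replicate 2 of 22Rv1. SP100 passed in each case. The number of calls over all genes tested was also lower in each of these fits than in the fit on all 8 arrays.

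Of the upstream genes, JAK1, the kinase used by the interferon receptors, rose in 22Rv1-DR cells (1.38 ± 0.21, SE, adjusted p = 0.00623; 0.93 on the third pair). TRAF3, an adaptor between nucleic acid sensors and the kinases of IRF3, also rose (0.87 ± 0.18, SE, adjusted p = 0.0256), but was at 0.13 on the third pair. The other 10 JAK-STAT genes, the other 10 sensing genes, the 5 receptor chains, the 2 tested ligands and the 7 chromatin and IRF partners did not pass. Of the markers, CDH1 fell in 22Rv1-DR cells (-3.38 ± 0.23, SE). The other 6 tested prostate epithelium markers did not pass, with changes from -0.78 for KLK3 to 0.42 for KLK2. The matrix gene LUM rose (6.04 ± 0.23, SE, with 1.20 on the third pair). The other 6 tested fibroblast markers did not pass, with changes from -0.16 for FBLN1 to 0.32 for COL3A1. DCN, not tested, was at 0.95 on replicates 1 and 2 and -0.89 on the third pair. The summed intensity of 9 fibroblast markers was 3071 to 4219 in 22Rv1-DR cells and 248 to 259 in 22Rv1 cells. Leukocyte markers summed to 239 to 287 in 22Rv1-DR cells and 209 to 248 in 22Rv1 cells. The part of these markers in the interferon-induced genes was not tested.

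The change in the 22Rv1 line minus the change in the DU145 line was then tested directly, as the term for the difference in the same fit. Of 36 genes, 14 had a more positive change in the 22Rv1 line (38.9%), 0 had a more negative one and 22 did not pass, against 4.48% and 3.52% of all genes tested. By unadjusted p under 0.05, 2 genes (IFIT5 and BST2) were on the negative side. IFITM3 had the largest difference of the list at 4.85 ± 0.35 (SE, adjusted p = 0.000181), followed by IFITM2 at 4.16 ± 0.37 (SE, adjusted p = 0.000414) and IFITM1 at 2.64 ± 0.37 (SE, adjusted p = 0.00392). On the third pair these differences were 7.34, 6.54 and 5.27.

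In 4 genes (IFITM1, IFITM2, IFITM3 and IFIH1) the change passed in both lines, with a fall in DU145-DR cells and a rise in 22Rv1-DR cells. For IFIH1 the difference was 1.81 ± 0.25 (SE, adjusted p = 0.00377; 2.95 on the third pair). In GBP1 (2.48), IFI6 (2.32), IFI35 (1.74), UBE2L6 (1.69), ISG20 (1.62), OAS3 (1.43), IRF9 (1.31) and MX1 (1.31) the gene passed in DU145-DR cells and not in 22Rv1-DR cells, and the difference itself passed. In SP100 (1.57) and PLSCR1 (1.52) it was the 22Rv1 change that passed. The difference was lost for GBP1 under quantile normalization (adjusted p = 0.0780), a shift to 1 median (0.0603), a pseudocount of 64 (0.100) and no filter on dim genes (0.0788). It was also lost under the shift to 1 median for IRF9 (0.0574), MX1 (0.0667) and PLSCR1 (0.0531), and for SP100 with a pseudocount of 64 (0.0698) or the mean of probe sets (0.962). The difference did not pass for ISG15 (0.95, adjusted p = 0.0651), USP18 (1.01, adjusted p = 0.0737), IFIT3 (0.85, adjusted p = 0.129), HERC5 (0.85, adjusted p = 0.121) or BST2 (-0.93, adjusted p = 0.0904). Under quantile normalization it passed for ISG15 (adjusted p = 0.0375) and USP18 (0.0315), and for ISG15 also with a pseudocount of 64 (0.0400) and the mean of probe sets (0.0464). Of the upstream genes STAT3 passed, at 1.67 ± 0.41 (SE, adjusted p = 0.0411).

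Levels of the list in the 2 lines were set side by side on the third arrays, 1 array per group and with no test. In resistant cells, 8 of 41 genes were at least 2-fold higher in DU145-DR than in 22Rv1-DR, 7 at least 2-fold lower and 26 within 2-fold, with a median log2 difference of -0.01. Over all genes tested 13.1% were at least 2-fold higher in DU145-DR and 12.7% lower. In parental cells, 24 of 41 were at least 2-fold higher in DU145 than in 22Rv1, 0 at least 2-fold lower and 17 within 2-fold, with a median of 1.21. Over all genes tested 12.7% were at least 2-fold higher in DU145 and 12.3% lower, with a median of -0.01.

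The order of the lines was opposite in resistant and parental cells for the IFITM genes. IFITM3 read 79.9 in DU145-DR and 2610 in 22Rv1-DR, a log2 difference of -4.78, and 8422 in DU145 and 1409 in 22Rv1, a log2 difference of 2.57. For IFITM2 the log2 difference, DU145 line minus 22Rv1 line, was -4.43 between the resistant lines and 2.11 between the parental lines, and for IFITM1 it was -2.57 between the resistant lines and 2.70 between the parental lines. IFIH1 had the same order, with -1.87 between the resistant lines and 1.08 between the parental lines. Both the resistant and the parental DU145 line had higher levels of IFI6, IFI16, UBE2L6 and HERC5, by 2.17, 2.01, 2.10 and 3.39 between the resistant lines and by 3.64, 3.49, 3.41 and 2.95 between the parental lines.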

How the data were processed

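Total RNA was hybridised as biotin-labelled cRNA, per the labels' protocols. The authors deposited probe-set intensity on a linear scale in 2 tables, of 8 arrays (22215 probe sets) and 4 arrays (54613). The tools MAS5 and RMA appear in the submitters' processing notes; what each did, its version and the background correction were not given in the sources used here. Precision is limited by how few arrays there are.

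Each gene was represented by its brightest probe set on average, among those annotated to 1 symbol, and those with "_x_at" names were used only where a gene had no other. Genes whose mean stayed at or below the 40th percentile (intensity 74.0) in every group were left out. The log2 of intensity plus 16 was fitted with limma 3.58.1 in R 4.3.3. The fit had 4 group terms, no block, 4 residual and 4.47 prior degrees of freedom, and a two-sided moderated test at a threshold of 0.05. The procedure was tested on simulated data with independent noise and 1 spread per gene in all groups. That simulation held neither the unequal spread of the lines nor deviations shared by same-numbered arrays, so it cannot speak for these. Alternatives were normalizations, pseudocounts, filters, probe-set means, a variance trend, a replicate block, 1 line alone and each array left out. Genes were named by a rule: those past the threshold array by array, up to the 12 largest changes per comparison, the rest in short, and upstream genes by count and, past the threshold, by name; other values were chosen after they were seen. The members and lists were chosen with earlier results of these data known. Promoter sequences and coordinates are from RefSeq, GRCh38.p14.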

Additional observations from a re-analysis of the deposited data

Results flagged for a closer look

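A test of the difference between the lines singled out 14 genes whose change in the 22Rv1 line exceeded that in the DU145 line (log2, 22Rv1 change minus DU145 change). The values were 4.85 for IFITM3, 4.16 for IFITM2, 2.64 for IFITM1, 2.48 for GBP1, 2.32 for IFI6, 1.81 for IFIH1 and 1.74 for IFI35. The others were 1.69 for UBE2L6, 1.62 for ISG20, 1.57 for SP100, 1.52 for PLSCR1, 1.43 for OAS3, 1.31 for IRF9 and 1.31 for MX1. Of these, 5 (IFITM1, IFITM2, IFITM3, IFI6 and IFIH1) held when any 1 of the 8 arrays was left out. SP100 rests on 1 probe set, since the mean of its probe sets gave a difference of 0.09 (adjusted p = 0.962). GBP1, MX1 and UBE2L6 read at or below the 40th percentile on all 4 22Rv1-DR and 22Rv1 arrays of replicates 1 and 2, which limits what a fall could show there.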

How the results depend on the processing

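Among the alternatives run, no call changed direction; small changes that had not passed did in places, such as OAS3 in 22Rv1-DR cells, at -0.04 without 22Rv1 replicate 2. The number of genes changed in DU145-DR cells (15) was 4 when only the arrays of that line were fitted, 7 to 16 when 1 array was left out (7 without DU145 replicate 2), and 12 to 18 otherwise. In 22Rv1-DR cells (8) it was 1 to 10 with 1 array left out and 7 to 12 otherwise. For the difference between lines (14) it was 5 to 17 with 1 array left out (8 without DU145 replicate 2; 5, 7, 6 and 5 without 22Rv1-DR replicates 1 and 2 and 22Rv1 replicates 1 and 2), 23 with a replicate block and 10 to 16 otherwise. A group left with 1 array was assumed to vary like the others; beyond this the causes were not tested. Over all genes, 1069 passed in DU145-DR cells, 540 in 22Rv1-DR cells and 777 for the difference, against 3445, 2147 and 3080 with the block, 292 with DU145 arrays alone and 1266 with 22Rv1 arrays alone; quantile normalization gave 1191 for the difference, and leaving out 1 array gave 489 to 1523, 214 to 866 and 314 to 1280. For the 19 genes that passed in a line or in the difference, calls and non-calls kept their side of the threshold in 350 refits without 1 array and 492 others, and 100 and 31 calls were lost, 6 and 19 gained. Samples share only a replicate number: deviations from group means of same-numbered arrays correlated at 0.693 in the DU145 line and 0.792 in the 22Rv1 line, and at 0.0688 to 0.123 across lines, a hint from the data, not the design. With the block 18 genes changed in DU145-DR cells (17 lower, 1 higher) and 12 in 22Rv1-DR cells (10 higher, 2 lower), and the difference had 21 higher and 2 lower, with all the calls made without it among them. The difference then passed for ISG15 (adjusted p = 0.0104), USP18 (0.00749), IFIT3 (0.00888), HERC5 (0.0287) and BST2 (0.0270), and the 22Rv1 change for IFI6 and IFI35. Signal close to the floor limits falls in the DU145 line and most low genes of the 22Rv1 line.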

Other observations

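The probe set that stood for OAS1 read 1468 to 6165 on the 8 arrays of replicates 1 and 2 and 15.9 to 23.6 on the 4 arrays of replicate 3, so it was bright on 1 array type and close to the floor on the other. The other OAS1 probe set read 14.4 to 67.6 on the 8 arrays and 13.4 to 14.8 on the 4. OASL, an OAS relative without the enzyme activity, had a further probe set at -2.86 on the third pair of the DU145 line, with 26.9 in DU145-DR cells and 296 in DU145 cells, and at -0.48 on replicates 1 and 2. RSAD2, which makes an antiviral nucleotide, had a probe set only on the larger array type that read 14.9 in 22Rv1-DR cells and 69.1 in 22Rv1 cells, with no replicate.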
